A study of Xerophyta schlechteri with 51 samples.

Results

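The transcripts described here are 70 genes of Xerophyta schlechteri that were expressed in watered, non-senescent leaf blades and fell steeply as the leaf dried. They were still far below their starting level 48 h after rewatering. They were chosen by their measured values from 20783 gene IDs that occur once in the deposited table. The value used for a group was the mean of its 3 libraries plus 1 FPKM (fragments per length of transcript, scaled to the library). A gene was kept if that value was at least 10 and below 100 at full turgor, at least 8-fold lower in the dry leaf, no higher at 75% water content than at full turgor, and at least 4-fold lower after rewatering than at full turgor. All of these conditions were set in non-senescent tissue. A set of 526 genes that met the same conditions, except that they were back above the 4-fold limit after rewatering, is called the regained genes and is given beside the members.

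Xerophyta schlechteri is a resurrection plant: its leaves lose nearly all their water in drought and take up life again when rewatered. In such plants the machinery for photosynthesis and growth is commonly shut down early in drying, protective proteins and sugars accumulate, and the stored transcripts of the dry leaf are followed by new transcription on rewatering. Some leaf tissue, mostly near the tip, senesces during this cycle and does not recover. The genes below are known only by their IDs, since the sources used here pair no ID with a name, so nothing is said of what each one encodes.

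RNA of leaf blades was sequenced in 51 libraries, in 17 groups of 3. The groups combine 3 states of the tissue, non-senescent (NST), pre-senescent (PST) and senescent (ST), with up to 6 stages. These were full turgor, 75%, 55%, 35% and below 10% relative water content (RWC, 100% in a fully turgid leaf), and 48 h of rehydration. PST has no full turgor group, and the stage of every sample is labelled by the water content of the NST. No genotype other than the species, no agent and no plant age are given. The groups are stages of a cycle of drying and rewatering, and only the rehydrated groups were rewatered. The labels do not tell whether the 3 samples of a group are separate plants, and p-values cover only their spread, which may be technical. The leaf blade label could not be checked against marker genes without names. Libraries are called by the numbers 0, 1 and 2 of their columns.

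In NST at full turgor, values that chose the members, the median level over the 70 members was 29.0, 32.5 and 30.9 FPKM in libraries 0, 1 and 2. It was 0.51, 0.70 and 0.32 FPKM in the 3 dry libraries. After 48 h of rewatering it was 1.67, 2.04 and 3.98 FPKM, while the regained genes stood at 27.9, 27.7 and 21.8 FPKM. The members thus stayed far below their starting level in a leaf in which the regained genes were close to theirs. In bulk RNA, fewer cells of a type and less of a transcript per cell cannot be told apart. These are descriptions and carry no test, because the rule used them.

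**Figure D1:**
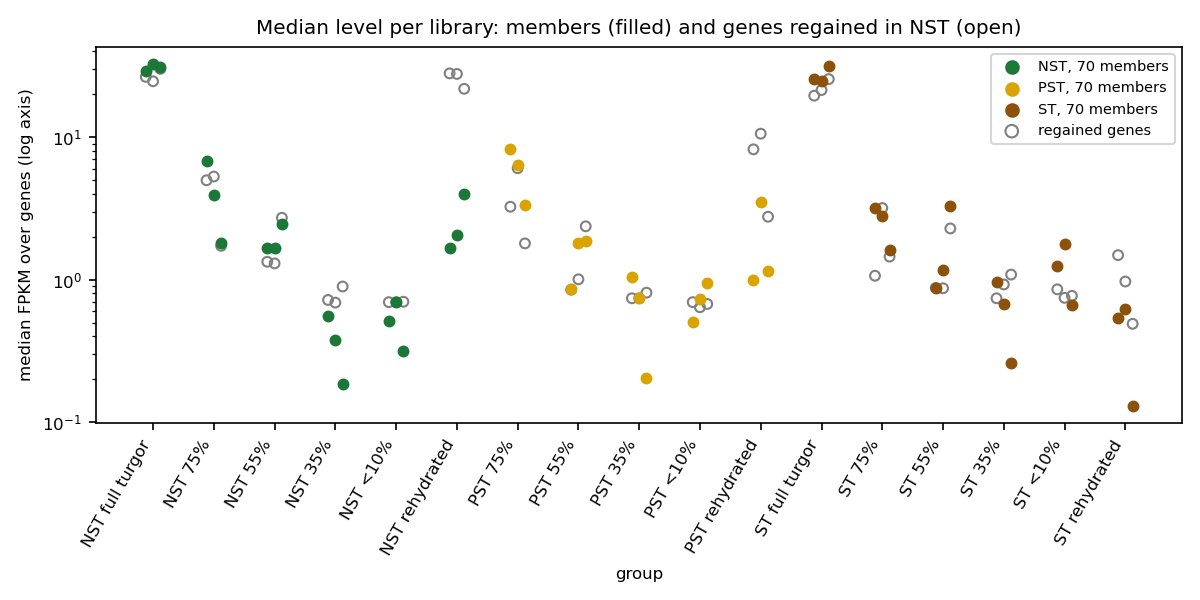
Median FPKM (log axis) over the 70 members (filled points, coloured by tissue) and over the 526 regained genes (open points) in each of the 51 libraries, 3 per group. The rehydrated NST libraries are where both sets part by rule, with members at 1.67 to 3.98 FPKM and regained genes at 21.8 to 27.9 FPKM.

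Members differed in how far they had fallen and how little had come back. The median fold between full turgor and the dry leaf was 16.8, from 8.06 in the member nearest to the limit to 42.0, and the nearest gene outside it stood at 7.94. The fold between full turgor and the rehydrated leaf had a median of 7.07, from 4.09 to 52.4, and the nearest gene outside stood at 3.98. There were 29 genes with a fold between 3 and 4 that met every other condition, so the limit runs through a continuous range. The level at full turgor spanned 11.1 to 98.1 FPKM with the added 1, and 33 genes above the upper limit met the remaining conditions. The member with the smallest fall at 75% RWC kept 0.916 of its level at full turgor, and the nearest gene outside had 1.04. The 3 dry libraries lay wholly below the 3 full turgor libraries in 67 of the 70 members, the rehydrated ones in 66 and the 75% RWC ones in 44. The rule used all of these groups and its limits favour such a separation, so these counts are descriptions and support nothing further. Between the dry and the rehydrated NST, 37 members stood at least 2-fold higher after rewatering, 30 were within 2-fold and 3 had at most 50% of the dry value. The highest rehydrated mean of a member in NST was 14.8 FPKM.

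**Figure D2:**
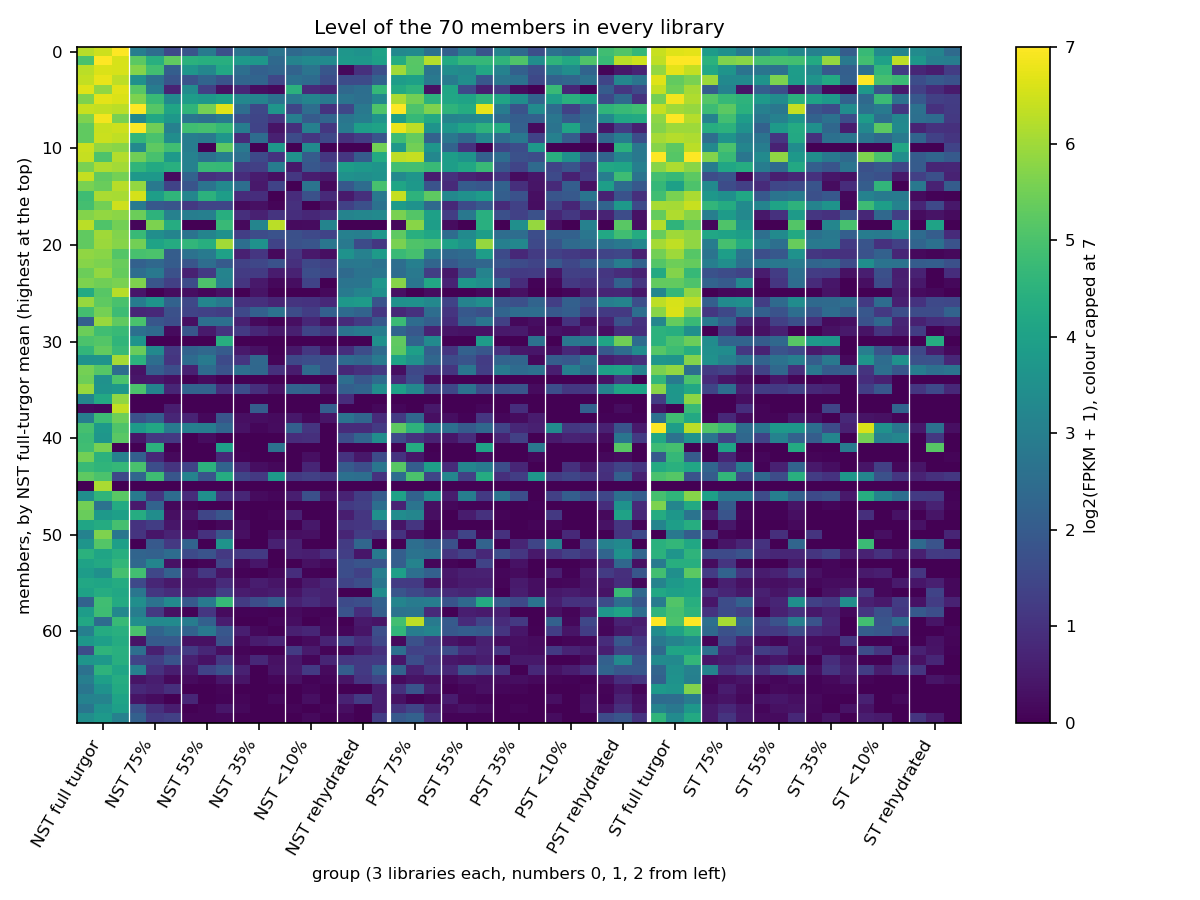
Level of the 70 members, log2(FPKM + 1) with the colour capped at 7, one row per member ordered by its NST mean at full turgor, and one column per library in 17 groups of 3. The brightest columns are the full turgor ones of NST and ST, with single bright libraries in later stages of a few rows such as Xvis03_203747.

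The median member had lost most of its level by 75% RWC, and further loss followed by 35% RWC. Relative to full turgor in NST, and on group means plus 1, 22 of the 70 members had 12.5% or less left at 75% RWC, 38 at 55% and 64 at 35%. The median member had 21.1%, 11.8% and 5.75% left at these stages, and the regained genes had 20.1%, 11.4% and 7.91%. These shares rest on the full turgor group that the rule used and have no test. The step from 55% to 35% RWC uses neither a rule group nor its libraries, and 13 of 69 tested members were lower at 35% than at 55% RWC (limma, Benjamini-Hochberg adjusted p under 0.05), where 3.88% of all 18717 tested genes were. None was higher, against 4.35% of all genes. The median difference over the members was -0.87 in log2(FPKM + 1), against -0.04 over all genes, and 41 of the 526 regained genes were lower. The 13 members had means of 4.14 to 56.8 FPKM at 55% RWC and 0.18 to 6.02 FPKM at 35%. Leaving out a library changed this count. It was 1, 9 and 12 without the 55% RWC library 2, 1 and 0. It was 4 without the 35% RWC library 1, and 7 without either other 35% RWC library. The share of all genes was not computed for these fits, which also have fewer degrees of freedom.

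Senescent tissue entered none of the conditions, and its own full turgor group gives a second view of the loss. At full turgor the members were at much the same level in ST as in NST, with medians over members of 25.5, 24.5 and 31.5 FPKM in the 3 libraries. The ratio of ST to NST at full turgor had a median of 0.87. It was within 2-fold for 61 members, more than 2-fold higher in ST for 3 and lower for 6. Libraries of the same number deviated together between these 2 groups (correlation over genes of the deviations from the group means, 0.68 to 0.75), so the ST libraries at full turgor are not a wholly separate set of measurements.

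The members fell with drying in ST as well. At 75% RWC 56 of 69 tested members were below ST full turgor, with a median difference of -2.53 in log2(FPKM + 1), where 19.9% of all tested genes were lower. At 55% RWC 59 were lower (21.5% of all genes; median difference -3.25), at 35% RWC 63 (25.7%; -3.77) and in the dry tissue 59 (29.3%; -3.36). None was higher at any of these stages, where 15%, 16.8%, 19.2% and 25% of all genes were. The median over all genes in these comparisons lay between -0.07 and -0.13. The regained genes moved the same way, with 485, 505, 514 and 499 of 526 lower. All of these comparisons share the 3 ST libraries at full turgor, so their counts are not independent of each other. A few tested members passed the filter on low values only through the full turgor groups, and they stay in these counts.

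Xvis03_215302 and Xvis03_223239 had the largest falls in dry ST, in log2(FPKM + 1), among the members called there with no overlap between the groups. For Xvis03_215302 the 3 libraries at ST full turgor had 77.3, 94.2 and 77.9 FPKM and the dry ones 1.30, 4.51 and 0.52 FPKM. The groups lay far apart, with a log2 difference of -4.97 (SE 0.54, limma adjusted p 1.78e-09, lower in 3 of 3 libraries). After rewatering this gene stood at 1.02, 1.90 and 1.83 FPKM in ST, no higher than in the dry tissue. In rehydrated NST it had 12.4, 13.4 and 2.46 FPKM, after 1.07, 1.02 and 0.75 FPKM in dry NST. Xvis03_223239 had 21.0, 31.0 and 41.8 FPKM at ST full turgor and is listed at 0 in the 3 dry ST libraries (limma adjusted p 0.0011). A listed 0 may be a failed estimate in files of this kind: in 263 cases of a gene and group, 1 library was at 0 and the others at 10 FPKM or more, among them cases of 3 members. No fold is therefore given for it, and its rank rests on these zeros and on the added 1: with 5 FPKM added the log2 difference was -2.82. Its level swung widely elsewhere too, with 16.1, 44.1 and 4.50 FPKM in rehydrated PST and 0, 19.3 and 0 FPKM in rehydrated ST.

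**Figure D3:**
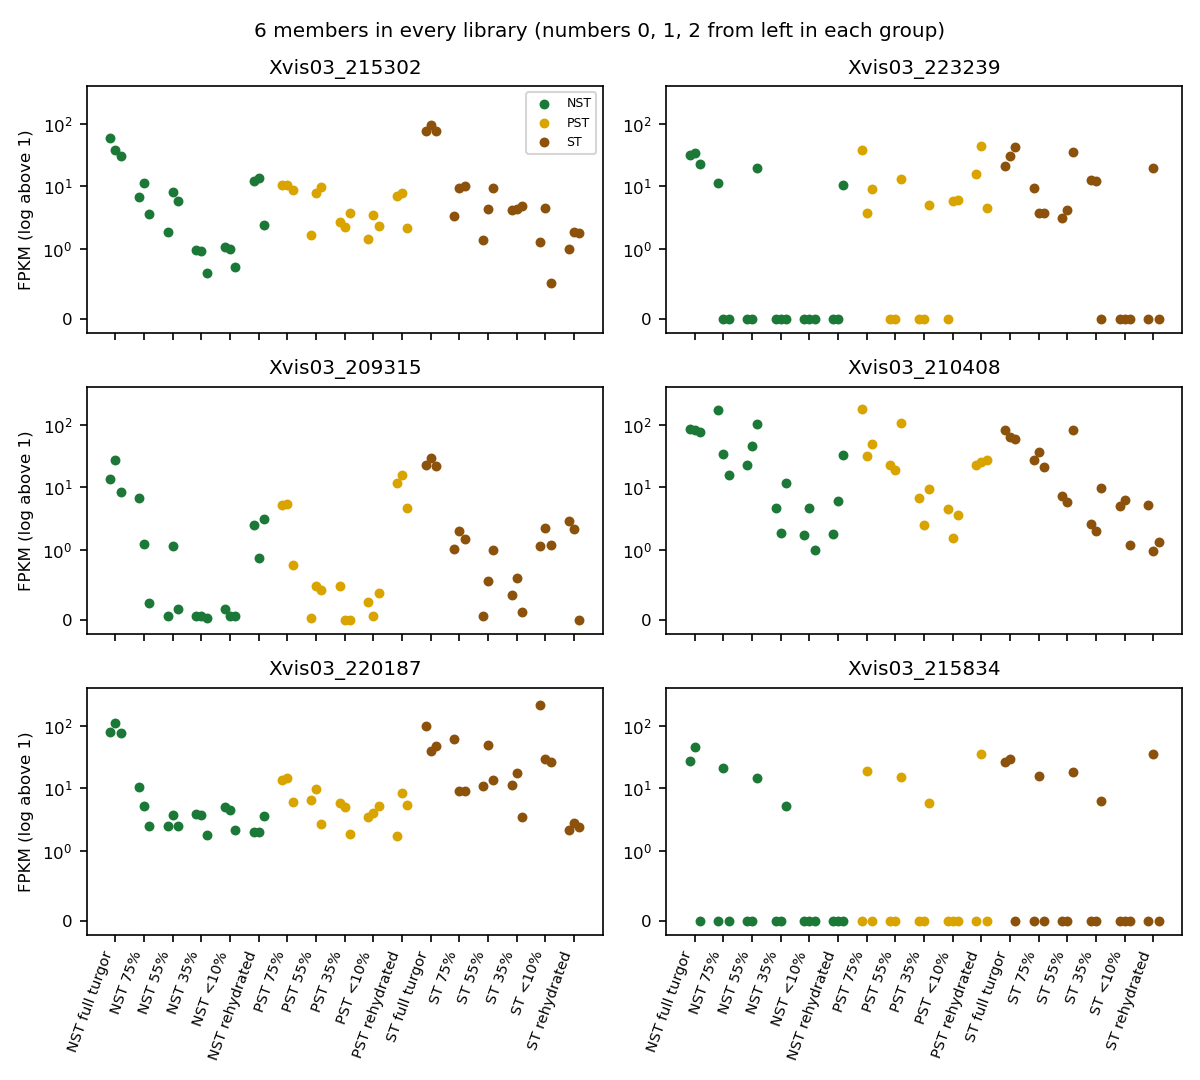
FPKM in all 51 libraries (axis linear below 1 and logarithmic above) for the 2 members with the largest tested fall in ST, the 2 with the largest tested rise on rewatering in PST, and Xvis03_220187 and Xvis03_215834, chosen after their values were seen. Points are single libraries, 3 per group, in the order of their numbers. Xvis03_220187 is near its full turgor level in dry ST, and Xvis03_215834 alternates between 0 and 5.28 FPKM or more.

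Not every member was low in dry ST: 11 of the 70 had a mean of at least 10 FPKM there, where 3 did in dry PST. Of 69 tested members 10 did not pass the test against ST full turgor, but a miss can also come from a wide spread. Xvis03_203747, picked after its values were seen, missed it at a log2 difference of -4.07 (limma adjusted p 0.059). It had 0, 0 and 12.7 FPKM in dry ST. Xvis03_220187, singled out after its values were seen, had 100, 39.2 and 47.2 FPKM at ST full turgor, 11.3, 17.6 and 3.52 FPKM at 35% RWC and 211, 29.7 and 26.6 FPKM in dry ST. The dry ST libraries all lay above those at 35% RWC, with library 0 far above the other 2. In dry PST it had 3.52, 3.99 and 5.18 FPKM and all dry ST libraries lay above these. The dry NST libraries, whose low level the rule required, had 5.03, 4.44 and 2.19 FPKM. Its log2 difference between dry ST and dry PST was 3.44 (limma adjusted p 0.00042, higher in 3 of 3 libraries). Rewatered ST had 2.17, 2.85 and 2.38 FPKM.

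Against dry PST, 4 of 69 members were higher in dry ST, where 6.17% of all tested genes were, and none was lower, against 5.06% of all genes and with 0 members at an unadjusted p under 0.05. The 4 were Xvis03_209869, Xvis03_215628, Xvis03_220187 and Xvis03_222229, named because they are few and chosen after their values were seen. A share of 4 in 69 is near that of all genes. Same-numbered libraries deviated together between these groups, and with the library number as a block 13 members were higher, where 17% of all genes were. Without dry ST library 0 the count was 2, and with the fit limited to both groups it was 0. A comparison added after the data were seen set dry ST against ST at 35% RWC: 6 of 69 members were higher, where 9.45% of all genes were, and none was lower, against 6.37%. It found none without dry ST library 0 or without the 35% RWC library 2. Dry ST library 0 held the highest level of Xvis03_220187, Xvis03_215628 (45.6 against 7.22 and 8.31 FPKM) and Xvis03_217775 (96.0 against 10.7 and 5.55 FPKM). Its part in these counts was not tested, since leaving out a library also removes degrees of freedom.

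Few members were called between NST and ST at the intermediate stages. At 55% RWC 0 of 69 were lower in ST than in NST, where 0.353% of all genes were, with 7 at an unadjusted p under 0.05. One member, Xvis03_209869, was higher in ST, where 0.657% of all genes were, at 7.85, 15.6 and 22.1 FPKM against 1.23, 1.70 and 1.75 FPKM in NST (log2 difference 2.56, limma adjusted p 0.036). It was not called without ST library 1 or without any 1 of the NST libraries. With the library number as a block, 9 members were lower and 6 higher at this stage, where 10.2% and 9.64% of all genes were. At 35% RWC no member was called in either direction, where 0% of all genes were lower and 0.0107% higher; 0 were lower and 6 higher at an unadjusted p under 0.05. The fit with library number as a block called 2 members higher in ST, where 0.753% of all genes were. Library weights gave 6, but the share of all genes was not computed for that fit, so nothing is read from the 6. Few genes of any kind were called between these groups without the block.

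Rewatering did not raise the members in ST. After 48 h, 66 of 69 tested members were still below ST full turgor, where 29.8% of all genes were, with a median log2 difference of -3.87. The 3 that missed the threshold were Xvis03_203747, Xvis03_215834 and Xvis03_223032, whose libraries alternate between 0 and high values. Of the 70 members, 58 (82.9%) had 12.5% or less of their ST full turgor mean plus 1, as did 349 of the 526 regained genes (66.3%). Median levels over members were 0.54, 0.63 and 0.13 FPKM in the 3 libraries, and 44 of 70 members had a mean below 1 FPKM. The regained genes were low in rewatered ST as well, at medians of 1.49, 0.97 and 0.49 FPKM, and 518 of 526 were below ST full turgor.

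Compared with dry ST, no member was higher in rewatered ST by limma, where 13.8% of all genes were, and 0 were at an unadjusted p under 0.05. In contrast 16 members were lower, where 16.2% of all genes were, with a median difference over the 69 of -0.42 in log2(FPKM + 1). The 16 had dry ST means of 2.52 to 89.1 FPKM with a median of 11.9, and a median of 1.44 FPKM after rewatering. Their share is 23.2% of the members and 8.94% of the regained genes, of which 31 were higher; no test of that difference was made. Without dry ST library 0 the count of lower members was 10. Relative depth, estimated from the steps between low values, was 0.48 to 0.77 of the mean library in dry ST and 0.49 to 0.74 in rewatered ST, and its part in these counts was not tested.

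**Figure D4:**
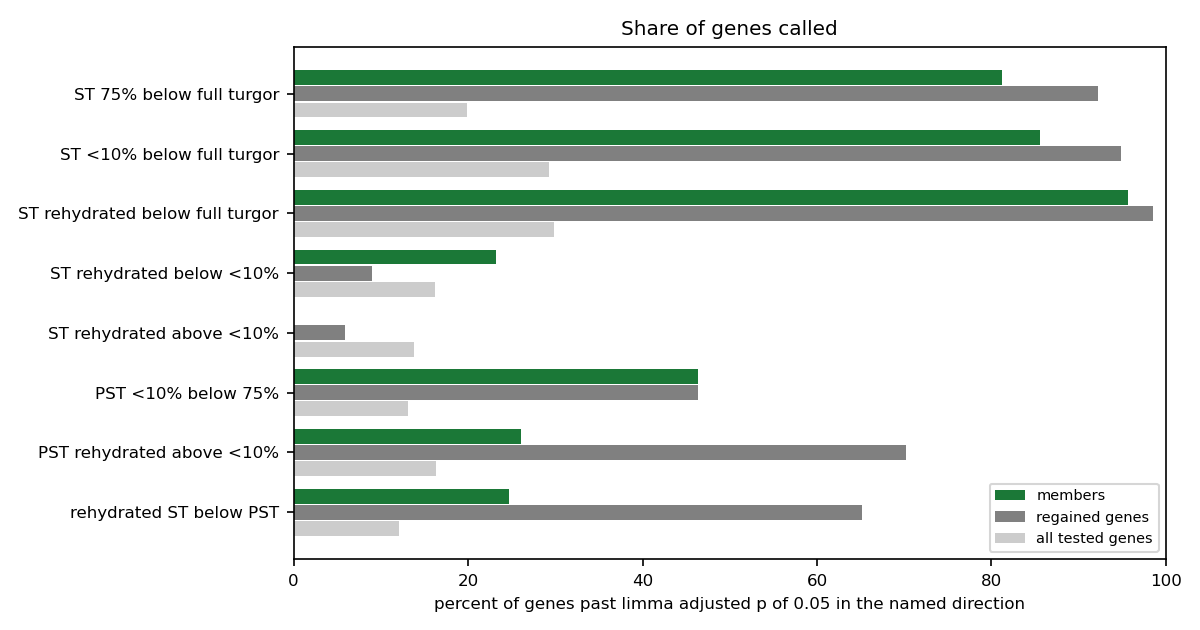
Percent of the 69 tested members, the 526 regained genes and all 18717 tested genes past a limma adjusted p of 0.05 in the named direction, for 8 comparisons between groups that the rule did not use. The ST full turgor libraries deviated together with those of NST full turgor, which the rule used. In dry ST 85.5% of the members and 94.9% of the regained genes were lower than at full turgor, and on rewatering in PST 26.1% and 70.2% rose.

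In pre-senescent tissue part of the members fell on drying, and part rose on rewatering. On drying from 75% RWC, the wettest PST stage, 32 of 69 members fell, where 13.1% of all genes did, with a median log2 difference of -1.44, and 244 of 526 regained genes fell. None rose, where 12.6% of all genes did. The spread between the PST libraries at 75% RWC was wide, and the number of lower members was 16 without library 1 of that group and 21 with the fit limited to both groups. Among members of 10 to 100 FPKM the median SD over these 3 libraries was 1.24 in log2(FPKM + 1), against 0.43 for all genes of that level and 1.00 for the regained genes.

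On rewatering of PST 18 of 69 members rose, where 16.3% of all tested genes did, and 3 fell, where 13.8% did. The median difference was 0.68 in log2(FPKM + 1), against 0.03 over all genes. Of the regained genes 369 of 526 (70.2%) rose, with a median of 1.92, while 26.1% of the members did. Since the regained genes were picked for a high level in rewatered NST, this difference between the sets is a description. The 18 members that rose went from a median of 0.86 FPKM in dry PST to 8.05 FPKM, and stood at a median of 1.16 FPKM in rewatered ST. Without library 1 of the rewatered PST the count that rose was 10.

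Xvis03_209315 and Xvis03_210408 had the largest rises of those past the threshold with a mean of at least 10 FPKM and no overlap of libraries. Xvis03_209315 was at 0.25, 0.06 and 0.39 FPKM in dry PST and at 11.8, 15.7 and 4.69 FPKM after rewatering. All rewatered libraries lay above all dry ones, with a log2 difference of 3.12 (SE 0.50, limma adjusted p 1.36e-05). In PST at 75% RWC it had 5.20, 5.47 and 0.78 FPKM, so the rewatered level was the higher one (log2 difference 1.36, limma adjusted p 0.039). Rewatered NST had only 2.47, 0.89 and 3.16 FPKM, against 13.6, 27.5 and 8.50 FPKM at full turgor. In ST it was at 1.16, 2.29 and 1.21 FPKM when dry and 2.96, 2.19 and 0 FPKM after rewatering, and these groups overlapped.

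For Xvis03_210408 the dry PST libraries had 4.48, 1.56 and 3.62 FPKM and the rewatered ones 23.0, 25.1 and 27.7 FPKM. The log2 difference was 2.71 (SE 0.85, limma adjusted p 0.015), and without dry PST library 1 the adjusted p was 0.067. In ST the gene was at 5.08, 6.32 and 1.20 FPKM when dry and at 5.15, 0.99 and 1.33 FPKM after rewatering, and in rewatered NST at 1.83, 6.05 and 32.4 FPKM. The last group spans the range from dry levels to those of rewatered PST. This member also carried one of the late losses in NST, from 23.0, 45.6 and 102 FPKM at 55% RWC to 4.62, 1.88 and 11.6 FPKM at 35% RWC (log2 difference -3.05, limma adjusted p 0.024).

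Return in PST was judged against its 75% RWC stage, as PST has no full turgor group. There 17 of 69 members were lower in the rewatered tissue, where 14.1% of all genes were, and 4 were higher, where 14.6% were. The 4, named because they are few and chosen after their values were seen, were Xvis03_206900, Xvis03_209315, Xvis03_210538 and Xvis03_222687. The last had 8.70, 9.15 and 5.13 FPKM at 75% RWC, 5.26, 4.37 and 6.63 FPKM when dry, and 27.9, 33.3 and 24.1 FPKM after rewatering, above both earlier groups in all libraries (limma adjusted p 0.00063 against 75% RWC and 5.95e-05 against dry). It reached 11.8, 10.8 and 15.4 FPKM in rewatered NST and 9.33, 7.90 and 4.33 FPKM in rewatered ST, against 74.9 to 129 FPKM at NST full turgor. Over the 70 members the rewatered mean plus 1 was a median of 68.9% of that at 75% RWC and above it in 21. For the regained genes it was 156%, and 370 of 526 were above it.

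The 3 members that fell on rewatering in PST, again named after their values were seen, Xvis03_215639, Xvis03_221016 and Xvis03_222456, were also all among the 16 that fell in ST. Xvis03_222456 had 7.17, 9.83 and 3.82 FPKM in dry PST and 0.07, 0.36 and 0.61 FPKM after rewatering (log2 difference -2.50, limma adjusted p 0.0063). It had 4.94, 23.6 and 1.36 FPKM in dry ST and 0.70, 0.47 and 1.36 FPKM in rewatered ST, with adjusted p 0.031 by limma. In NST, where the rule used the values, it had 3.67, 5.48 and 2.65 FPKM when dry and 0.12, 0.96 and 2.19 FPKM after rewatering. In each tissue its mean after rewatering was below that of the dry leaf. Of the 16 members lower in rewatered ST, 3 (18.8%) were among the 18 that rose in PST (16.7% of these).

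**Figure D5:**
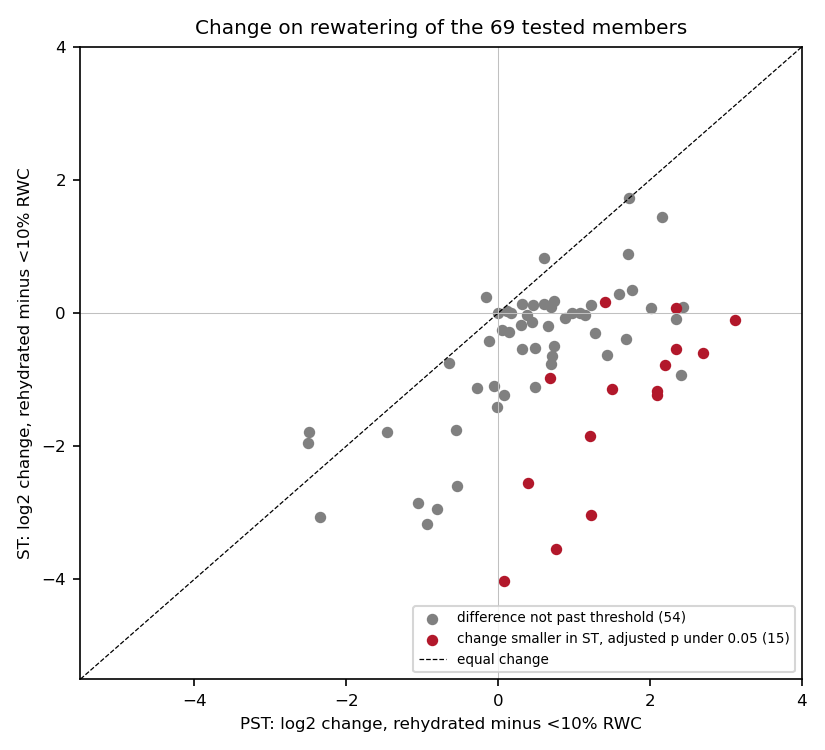
Change on rewatering, rehydrated minus below 10% RWC in log2(FPKM + 1), in PST (x axis) and ST (y axis) for the 69 tested members, with the line of equal change. The 15 red points have a lower signed change in ST than in PST at a limma adjusted p under 0.05, and most points lie below the line.

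The difference between the tissues was tested directly. Rewatered ST was below rewatered PST in 17 of 69 members, where 12.1% of all genes were lower, and above it in none, where 10.9% were higher. The median difference over the members was -0.74 in log2(FPKM + 1), and 343 of 526 regained genes (65.2%) were lower. The signed log2 change from dry to rewatered was lower in ST than in PST in 15 members, where 11.8% of all genes showed this. It was higher in none, against 9.01%. A lower change can be a smaller rise or a steeper fall. The median difference in change over the members was -1.19, and 283 regained genes (53.8%) were called the same way. Same-numbered libraries of ST and PST deviated together. With the number as a block 31 members were lower in rewatered ST, where 23.1% of all genes were. A lower change was then called in 32, where 24.1% of all genes showed this. With the fit limited to both rewatered groups, none was lower. Without rewatered PST library 1 the count of lower members was 9, and without rewatered ST library 2 it was 10. For Xvis03_209315 the change differed by -3.23 (limma adjusted p 0.0017) and for Xvis03_210408 by -3.30 (limma adjusted p 0.047).

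Ordered by the median of the 70 group means, NST and ST at full turgor came highest at 27.9 and 25.1 FPKM. PST, NST and ST at 75% RWC followed at 7.37, 5.29 and 3.43 FPKM, and then NST at 55% RWC at 3.26. Rewatered NST stood at 3.03 and rewatered PST at 2.21, while rewatered ST at 0.66 lay among the dry and 35% RWC groups, which ranged from 0.42 to 1.71 FPKM. Rewatered NST and PST lay closer together than their libraries, which ran from 1.67 to 3.98 and from 1.00 to 3.49 FPKM. A mean of at least 10 FPKM was reached by 10 members in rewatered NST, 13 in rewatered PST and 1 in rewatered ST. For the regained genes these were 461, 212 and 18 of 526.

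A few members have values that switch between libraries of 1 group. In 6 of the 70 (8.57%), at least 2 groups held 1 library of 10 FPKM or more and another of 0.1 or less, against 6 of 526 regained genes (1.14%) and 192 of 13485 IDs that reach 10 FPKM (1.42%). Xvis03_215834, chosen after its values were seen, had 27.8, 46.5 and 0 FPKM at NST full turgor and 26.7, 29.7 and 0 FPKM in ST. At 55% RWC it had 14.5 FPKM in library 2 of NST, 15.4 in library 2 of PST and 18.2 in library 2 of ST, and 0 in every other library of that stage. After rewatering it had 35.0 FPKM in library 1 of PST and 35.1 in library 1 of ST, and 0 in the rest, NST included. Of 11 such stages seen in 2 or 3 tissues, 9 had their highest library under the same number in each tissue. Xvis03_223584 is a member through 1 library, with 68.7 FPKM in NST full turgor library 1 and 0 listed in the other 50. It is the one member not tested. Other members also rest mainly on 1 NST full turgor library. Among them, picked after their values were seen, Xvis03_223032 had 0.14, 0.08 and 81.4 FPKM there, and Xvis03_212217 had 7.61, 49.0 and 5.68 FPKM. Leaving out the 6 members that switch in at least 2 groups and Xvis03_223584, together 7, moved no count given above by over 1.5 times. The 63 others held 63 of the members lower in rewatered ST than at ST full turgor. They held 16 of those lower in rewatered than in dry ST and 18 of those that rose on rewatering in PST.

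The summed FPKM of a library lay between 489069 and 1.06e+06, and 13775 to 16157 entries reached 1 FPKM. Absolute depth is unknown, as the table holds no counts. Relative depth from the steps between low values, with the mean library at 1, was 1.16 to 1.53 in the full turgor groups, 0.63 to 0.95 in rewatered NST, 1.10 to 1.24 in rewatered PST, 0.49 to 0.74 in rewatered ST and 0.48 to 0.82 in the dry groups. Levels below 1 FPKM in dry and rewatered tissue therefore rest on fewer fragments than those at full turgor and are the less precise. All but 1 member passed the filter of 1 FPKM in 3 libraries, and 66 would have passed it without the full turgor groups. The remaining tested members passed it only with those groups, and they stay in the counts against ST full turgor.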

How the data were processed

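RNA of leaf blades was measured in 51 libraries. The authors deposited 1 table of FPKM values with a column per library; per the submitters' processing notes the tools were Bowtie2, TopHat and Cuffdiff, whose versions and settings were not given in the sources used here. No values per library other than FPKM were used, so no counting error can be given. The members, the compared sets and the tests were chosen with earlier results of these data known. From the deposited values, 18717 of 21815 entries with at least 1 FPKM in at least 3 libraries were tested (3098 left out) as log2(FPKM + 1), which understates the change of low genes, with limma 3.58.1 (R 4.3.3), a trend in the variance and 1 spread over all 17 groups (34 residual degrees of freedom). P-values are two-sided and Benjamini-Hochberg adjusted over all tested entries, with a threshold of 0.05. Groups the rule used, NST at full turgor, 75% RWC, below 10% RWC and rehydrated, entered no tested contrast. Of the 21282 different IDs, 499 occur more than once and were not eligible as members. The rule for named genes took the 2 members with the largest fall from full turgor to dry ST and the 2 with the largest rise on rewatering in PST, past the threshold, without overlap of libraries and with 10 FPKM in the higher group; any other member named was chosen after its values were seen. Library numbers come from the columns. A number was taken to pair libraries where every same-numbered correlation of deviations was over 0.1: this held in the tested comparisons between tissues of 1 stage, with correlations of 0.47 to 0.56 for dry ST and PST and 0.38 to 0.56 for rewatered ST and PST, and for dry ST against ST full turgor (0.17 to 0.21). The labels put the driest stage below 10% RWC, and the protocol text gives another figure. The fit and the depth estimate were tested on simulated data. Alternatives were another pseudocount (0.1 or 5), another filter or none, quantile normalization, library weights, only the compared groups, the number as a block, and leaving out each library.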

Additional observations from a re-analysis of the deposited data

Results flagged for a closer look

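By the interaction term in limma, the change on rewatering differed between ST and PST in 15 of the 69 tested members. In each of them the signed log2 change, rewatered minus dry, was lower in ST, which can be a smaller rise or a steeper fall. The same call was made for 11.8% of all tested genes and for 283 of the 526 regained genes (53.8%). In Xvis03_209315 the log2 change in ST minus that in PST was -3.23, and in Xvis03_210408 it was -3.30.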

How the results depend on the processing

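The 4 members named by rule kept the sign of their difference under every alternative tried. The 5 comparisons with ST full turgor stayed within 1.5 times under every alternative; leaving out 1 library gave 48 to 53 lower members at 75% RWC, 54 to 60 at 55%, 61 to 63 at 35%, 56 to 60 in dry and 63 to 64 in rewatered ST. Members lower at 35% than at 55% RWC in NST were 7 with a pseudocount of 5, 0 with only the compared groups, and 1 to 12 leaving out a library. With the fit limited to the compared groups, which leaves few degrees of freedom, 21 members fell on drying in PST, 11 were lower in rewatered PST than at 75% RWC, 0 were lower in rewatered ST than in rewatered PST, 0 were higher in dry ST than at 35% RWC, and 0 were higher in dry ST than in dry PST. The 4 members higher in rewatered PST than at 75% RWC were 2 in that fit and with a pseudocount of 0.1, and the 3 that fell on rewatering in PST were 1 with a pseudocount of 5. Library weights gave 1 member lower and 4 higher in ST than in NST at 55% RWC, and 1 higher and 1 lower in dry ST than at 35% RWC. With the replicate number as a block, 9 members were lower in ST than in NST at 55% RWC and 6 higher. The balance thus turned from the 0 lower and 1 higher of the fit without it. With the block 31 were lower in rewatered ST than in rewatered PST, and 32 had a lower change on rewatering in ST. No other count of the planned directions moved by over 1.5 times. In comparisons across stages, dry ST against ST full turgor apart, the libraries share only a number. Leaving out a library gave 0 to 3 for ST below NST at 55% RWC (3 lower and 2 higher without ST library 2). It gave 0 to 8 for dry ST above 35% RWC and 10 to 15 for rewatered below dry ST. The ranges were 0 to 1 for dry ST below dry PST, 9 to 18 for rewatered ST below PST, and 11 to 16 for the lower change in ST. For PST they were 16 to 42 for the fall, 10 to 17 for the rise, and 12 to 24 for rewatered below 75% RWC. The cause of these shifts was not tested, except that the fits with fewer groups or libraries have fewer degrees of freedom. The rule itself chose 61 to 87 genes leaving out a library, 88 with group medians (61 shared with the 70) and 87 after quantile normalization (62 shared). Leaving out NST full turgor library 0, 1 or 2 kept 56, 58 and 59 of the 70, so some members depend on a single full turgor library. Depth limits the levels below 1 FPKM.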
